A study of Mus musculus with 16 samples.

Results

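Spi1 (PU.1) binding was compared between KO-iMOS and WT-iMOS mice within the samples labelled T1, in MPP3 cells sorted from mouse bone marrow. The members are the 5 Spi1 T1 libraries of the 16 in the series, 2 from KO-iMOS and 3 from WT-iMOS, chosen by the target, genotype and T1 in their labels. Their peaks on assembled chromosomes merged into 27168 regions, and each region was classed by which of the 5 lists had a peak in it. All samples are MPP3 cells from bone marrow, with titles that carry 3m. No label explains iMOS, T1 or 3m, names the allele that KO-iMOS mice lack or the cells that lost it, or ties a replicate to an animal of its own. The p-values below therefore measure the spread between these libraries only, which may be technical. The series asks how Bcl11a acts in MPP3 cells, and Bcl11a itself was profiled in WT-iMOS only, with 3 T1 and 3 T2 libraries. The Spi1 T2 libraries, 2 from KO-iMOS and 3 from WT-iMOS, serve here as lists that the choice of regions did not use. Peak names inside the lists begin with PWT in both KO-iMOS T1 lists and with PWG in all 3 WT-iMOS T1 lists. In T2 they begin with PKO in the KO-iMOS lists and with PMG in the WT-iMOS lists. The labels do not explain these prefixes, and whether the lists labelled KO-iMOS T1 hold another group could not be settled from the files. Groups follow the labels throughout, so every KO-iMOS value in T1 is that of the lists labelled so.

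MPP3 is a multipotent progenitor population biased towards granulocytes and monocytes. Spi1 is an ETS factor that binds purine-rich sites around a GGAA core, both at gene starts and at distal enhancers, and it is required for myeloid and lymphoid development. Bcl11a is a zinc finger repressor that binds the motif TGACCA, works with the NuRD complex, and is needed for lymphoid development and for silencing of fetal globin genes. CUT&Tag directs a transposase to an antibody-bound factor, so that DNA around the factor is cut and tagged. A peak list shows where such tags pile up, not how much of a gene is transcribed, so the cell type could not be checked against marker expression.

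The promoters below show examples of gene starts in each class, as the 250 bases before the start (RefSeq, GRCm38.p6, the assembly mm10 names). Capitals mark GGAAGT or its reverse complement, the core of the Spi1 motif. Nfyc, Swsap1 and Il12rb2 had a peak in both KO-iMOS lists and in no WT-iMOS list. Nlrp3 and Rps7 had a peak in all 3 WT-iMOS lists and in no KO-iMOS list, and Rgs19 and Inpp5d had one in all 5. Nfyc, Nlrp3 and Rps7 follow a rule of rank within the lists. The other promoters were picked after the values were seen, Rgs19 and Inpp5d because they carry the longer motif GAGGAAGT.
Nfyc, chr4:120815714-120815963, - strand: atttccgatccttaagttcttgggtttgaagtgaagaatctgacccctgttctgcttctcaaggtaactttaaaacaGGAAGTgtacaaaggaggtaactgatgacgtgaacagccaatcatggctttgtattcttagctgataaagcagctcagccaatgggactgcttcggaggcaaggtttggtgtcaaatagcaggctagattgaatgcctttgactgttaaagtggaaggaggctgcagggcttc
Swsap1, chr9:21955503-21955752, + strand: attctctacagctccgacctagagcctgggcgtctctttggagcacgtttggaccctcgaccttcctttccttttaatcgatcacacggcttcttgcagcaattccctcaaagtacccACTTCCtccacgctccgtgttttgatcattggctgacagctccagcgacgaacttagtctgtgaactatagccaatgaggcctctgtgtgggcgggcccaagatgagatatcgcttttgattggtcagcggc
Il12rb2, chr6:67376189-67376438, - strand: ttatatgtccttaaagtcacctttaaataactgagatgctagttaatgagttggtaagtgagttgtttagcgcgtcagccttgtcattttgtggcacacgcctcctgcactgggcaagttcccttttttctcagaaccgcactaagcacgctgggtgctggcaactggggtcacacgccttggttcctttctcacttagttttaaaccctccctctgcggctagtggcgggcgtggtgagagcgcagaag
Nlrp3, chr11:59541319-59541568, + strand: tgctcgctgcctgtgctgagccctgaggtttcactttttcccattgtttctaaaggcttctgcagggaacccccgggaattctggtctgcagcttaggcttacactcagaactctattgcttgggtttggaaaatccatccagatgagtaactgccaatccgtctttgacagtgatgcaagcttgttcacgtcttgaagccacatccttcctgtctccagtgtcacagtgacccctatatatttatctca
Rps7, chr12:28635954-28636203, - strand: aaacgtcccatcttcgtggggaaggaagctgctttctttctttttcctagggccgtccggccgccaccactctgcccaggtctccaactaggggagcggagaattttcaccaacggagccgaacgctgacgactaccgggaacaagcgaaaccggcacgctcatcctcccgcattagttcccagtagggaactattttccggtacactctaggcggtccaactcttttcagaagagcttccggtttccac
Rgs19, chr2:181693811-181694060, - strand: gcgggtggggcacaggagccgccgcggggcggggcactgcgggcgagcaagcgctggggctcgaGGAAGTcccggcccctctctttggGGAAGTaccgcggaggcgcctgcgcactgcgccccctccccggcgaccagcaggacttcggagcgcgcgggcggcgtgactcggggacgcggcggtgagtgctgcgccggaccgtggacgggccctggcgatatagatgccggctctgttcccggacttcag
Inpp5d, chr1:87620062-87620311, + strand: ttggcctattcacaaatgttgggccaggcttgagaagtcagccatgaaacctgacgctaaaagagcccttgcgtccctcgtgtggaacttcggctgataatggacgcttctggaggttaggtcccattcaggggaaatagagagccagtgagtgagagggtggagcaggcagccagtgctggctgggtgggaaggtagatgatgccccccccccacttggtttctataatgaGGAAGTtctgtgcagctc

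At the start of Nfyc, a subunit of the CCAAT-binding factor NF-Y, the deposited fold enrichment was 13.3 and 11 in the KO-iMOS lists. At Swsap1, a homologous recombination gene next to the erythropoietin receptor gene Epor, it was 10.3 and 8.74, and the window carries GAGGAAGT on the reverse strand. At Il12rb2, an interleukin-12 receptor chain, it was 11.2 and 11, with no capital in the bases shown. No WT-iMOS T1 list had a peak in these windows. In T2 all 3 had a peak in both KO-iMOS lists, but so did all 3 WT-iMOS lists at Il12rb2 and 1 at Nfyc, so the full split recurred at Swsap1 alone. At Nlrp3, the sensor of an inflammasome, the enrichment was 4.45, 5.07 and 3.68 in the WT-iMOS lists, and at the ribosomal protein gene Rps7 it was 6.62, 5.89 and 4.41. In T2 neither had a KO-iMOS peak, and 1 and 2 WT-iMOS lists had one. At Rgs19, a regulator of G-protein signalling, it was 14.8 and 14.9 in KO-iMOS against 14.3, 13.5 and 12.1 in WT-iMOS. At Inpp5d, which encodes the phosphatase SHIP1 of blood cells, it was 8.26 and 8.34 against 9.79, 8.39 and 9.11, so both genotypes had peaks of like height at these shared starts. Fold enrichment is the authors' value for a peak over local background and is given here only to describe peaks. The windows searched for motifs below also take in the 50 bases after the start. In those windows Il12rb2 and Rps7 each have 1 GGAAGT that the bases shown do not hold in full.

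The KO-iMOS lists were longer and lay closer to genes than the WT-iMOS lists. They held 20177 and 12984 peaks, against 10696, 6987 and 6648 in WT-iMOS, a ratio of means of 2.04. They covered 10.9 and 6.34 Mb against 4.83, 3.02 and 2.82 Mb. Every KO-iMOS list was longer than every WT-iMOS list. Single peaks were also wider in KO-iMOS, with median widths of 493 and 444 bp against 392, 376 and 363 bp. The narrowest peak was 263 and 250 bp wide against 215, 220 and 217 bp. Reads per library are not part of a peak list, so the depth is unknown, and longer lists from deeper sequencing cannot be told apart from more bound sites.

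Peak summits lay within 1 kb of either boundary of a protein-coding gene in 31.6% and 32.7% of KO-iMOS peaks, against 23.5%, 22.7% and 17.5% of WT-iMOS peaks. The difference of the means was 10.9 percentage points (32.1% ± 0.718, SD, n = 2, against 21.2% ± 3.28, n = 3). Conversely, summits more than 10 kb outside any gene made up 22.8% and 22.4% against 27.6%, 29.4% and 33.0%. A peak covered the 300 bases around the start of 29.3% and 19.8% of coding starts in KO-iMOS, and of 11%, 6.84% and 4.90% in WT-iMOS, a ratio of means of 3.23. Peaks that shared at least 1 bp with a Bcl11a T1 peak made up 27.2% and 34.5% of the KO-iMOS lists but 47.9%, 54.2% and 57.3% of the WT-iMOS lists. That difference was -22.3 percentage points (30.9% ± 5.13 against 53.1% ± 4.77). The genotypes did not overlap in any of 11 such measures, and each gave an exact two-sided permutation p of 0.2, which is the smallest that 2 against 3 libraries allow, so none could pass 0.05. Cut to the 6648 highest peaks each by the deposited −log10 p, the lists still differed by 9.42 and -13.6 percentage points in gene proximity and Bcl11a overlap.

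**Figure D1:**
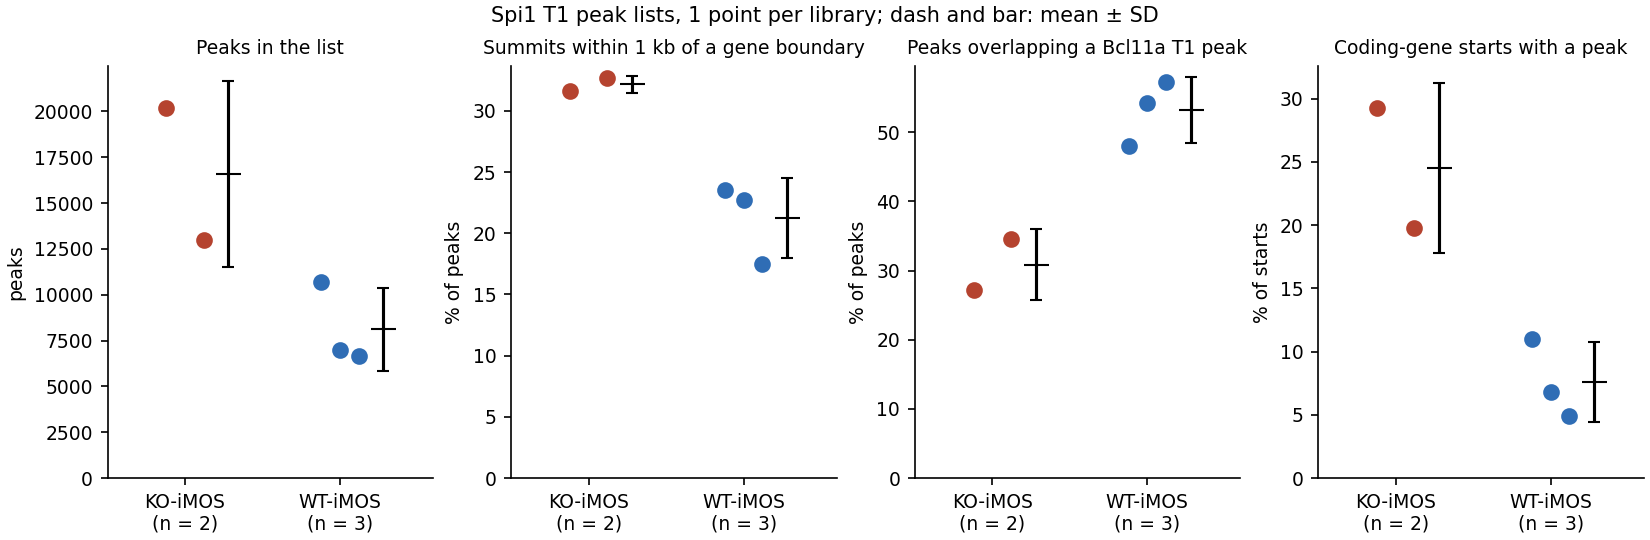
Peaks per list, percentage of summits within 1 kb of a gene boundary, percentage of peaks overlapping a Bcl11a T1 peak, and percentage of coding starts with a peak, for each Spi1 T1 library (points) with the mean ± SD beside them (dash and bar). In every panel the 2 KO-iMOS points lie apart from the 3 WT-iMOS points, with Bcl11a overlap lower and the other measures higher in KO-iMOS.

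Lists of one genotype resembled each other more than lists of different genotypes. The Jaccard index, the covered bases shared by 2 lists over the bases covered by either, was 0.446 between the KO-iMOS lists and 0.354 to 0.407 among the WT-iMOS lists. Across the 6 pairs of different genotype it ran from 0.122 to 0.320. Of the 27168 merged regions, 4953 had a peak in both KO-iMOS lists and in no WT-iMOS list (18.2% of all regions), here called KO-only. The reverse, in all 3 WT-iMOS lists and no KO-iMOS list, held 827 regions (3.04%), here called WT-only. Another 2740 regions (10.1%) had a peak in all 5 lists. Single-list regions were common too, with 8715 in 1 KO-iMOS list alone and 3634 in 1 WT-iMOS list alone. Cut to equal length, the lists gave 13906 regions, of which 1291 (9.28%) were KO-only and 921 (6.62%) WT-only. Of these, 964 and 582 overlapped a region of the same class in the lists as deposited. The count of KO-only regions thus depended on list length, and the 2 classes came closer to each other once it was equal. Their rules are unlike, since WT-only asks for a peak in 3 lists and KO-only in 2. With at least 2 WT-iMOS lists in place of 3, the deposited lists gave 1945 WT-only regions. Leaving out KO-iMOS replicate 2, the shorter of the pair, raised the KO-only count to 12495, and leaving out WT-iMOS replicate 2 raised the WT-only count to 1400.

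KO-only and WT-only regions lay in different places. Of the KO-only regions, 1638 (33.1%) had their centre within 1 kb of a gene boundary, 35.8% lay deeper inside a gene, 8.18% outside within 10 kb, and 23.0% farther away. Of the WT-only regions, 21 (2.54%) lay within 1 kb of a boundary, 46.1% deeper inside a gene, 10.5% outside within 10 kb, and 40.9% farther away. Bases within 1 kb of a coding-gene boundary make up 2.91% of the chromosomes up to their last gene. Bases inside a gene make up 37.9%. The WT-only share near boundaries was thus close to the share of the genome, and the KO-only share was far above it. Regions in all 5 lists had 31.0% near a boundary, about as many as the KO-only class. The median distance from a region's centre to the nearest gene boundary was 7643 bp for KO-only, 29461 bp for WT-only and 7280 bp for regions in all 5 lists. The shares near a boundary were 26.6% for KO-only and 7.27% for WT-only when the lists had equal length, so the gap between them narrowed but kept its direction. Without KO-iMOS replicate 1 the WT-only share was 4.32%. Median widths were similar, at 571 and 562 bp, against 811 bp for regions in all 5.

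**Figure D2:**
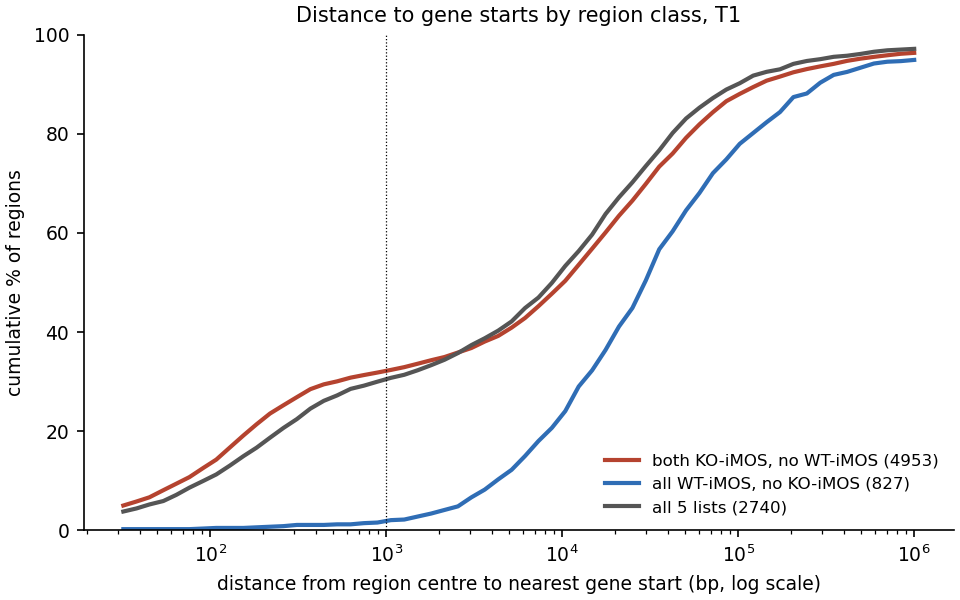
Cumulative percentage of merged regions (vertical axis) by the distance from the region's centre to the nearest annotated gene start (horizontal axis, bp, log scale), with 1 line per class and a dotted line at 1000 bp. At that distance the KO-only line has reached 32.2% and the line for all 5 lists 30.5%, while the WT-only line is at 2.06%.

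The number of lists with a peak separated these properties further. Regions without any KO-iMOS peak lay near a boundary in 4.68%, 2.86% and 2.54% of cases with a peak in 1, 2 and 3 WT-iMOS lists. Regions in both KO-iMOS lists did so in 33.1%, 35.7%, 36.7% and 31.0% of cases with 0, 1, 2 and 3 WT-iMOS lists. Regions in 1 KO-iMOS list did so in 29.6%, 26.2%, 26.0% and 10.2% of cases with 0, 1, 2 and 3 WT-iMOS lists. Proximity to genes was thus lowest without a KO-iMOS peak at each number of WT-iMOS lists, and among regions in 1 KO-iMOS list it was lowest with 3 WT-iMOS lists. Bcl11a overlap was higher with more WT-iMOS lists. It was 21.4%, 36.0%, 46.1% and 61.5% for regions in both KO-iMOS lists with 0 to 3 WT-iMOS lists, and 26.0%, 60.1% and 86.7% for regions in no KO-iMOS list with 1 to 3.

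**Figure D3:**
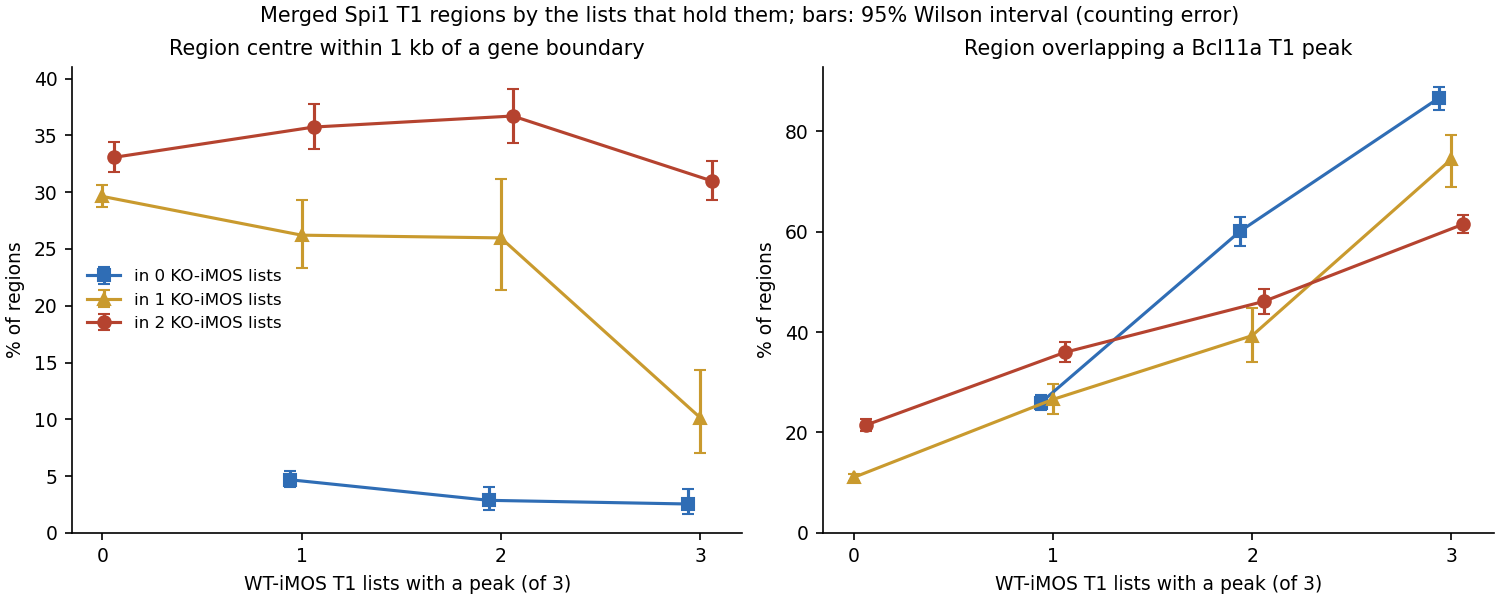
Percentage of merged Spi1 T1 regions whose centre lies within 1 kb of a gene boundary (left) and that overlap a Bcl11a T1 peak (right), by the number of WT-iMOS lists with a peak (horizontal axis) and of KO-iMOS lists with a peak (line and symbol); bars are 95% Wilson intervals for counting error. On the left the line for 0 KO-iMOS lists stays below 5% and the line for 2 lies between 31.0% and 36.7%, and on the right all lines rise with the number of WT-iMOS lists.

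Most WT-only regions were also Bcl11a regions. Over all merged regions 29.8% overlapped a Bcl11a T1 peak, and 43.1% when the lists had equal length. A peak of at least 1 Bcl11a T1 list overlapped 717 of the 827 (86.7%, 95% Wilson interval 84.2% to 88.8%, counting error only), and all 3 Bcl11a lists overlapped 392 (47.4%). The single Bcl11a lists held 76.5%, 64.8% and 63.7% of them, and 85.2% overlapped a Bcl11a T2 peak. Among KO-only regions 1062 (21.4%, interval 20.3% to 22.6%) overlapped a Bcl11a T1 peak, 118 (2.38%) did so in all 3 lists, and 7.69% overlapped a Bcl11a T2 peak. The single Bcl11a T1 lists held 3.13%, 12.8% and 17.3% of the KO-only regions. The first of these lists also had fewer of its own summits near a gene boundary, 20.7% against 38.5% and 40.7%. At equal list length the overlaps were 81.8% of WT-only and 23.8% of KO-only regions. The Bcl11a lists come from WT-iMOS animals, as the WT-only regions do, so shared binding of both factors and a property shared by WT-iMOS libraries cannot be told apart.

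Bcl11a overlap and gene proximity went together among KO-only regions but not among WT-only regions. Of the 1062 KO-only regions with a Bcl11a T1 peak, 66.9% lay within 1 kb of a boundary, with a median distance to the nearest start of 207 bp. Of the 3891 without one, 23.8% did. Of the 717 WT-only regions with a Bcl11a peak, 2.09% lay within 1 kb of a boundary, and of the 110 without one, 5.45%. The regions in all 5 lists followed the KO-only pattern, with 37.4% near a boundary where Bcl11a overlapped and 20.8% where it did not.

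The highest KO-only regions by rank within the lists were distal. The leading one lay 30435 bp from Lilra5, an immunoglobulin-like receptor gene of myeloid cells, at chr7:4273708-4274541, with fold enrichments of 13.0 and 14.4. The next lay inside Nrp2, a co-receptor for semaphorins and VEGF, at chr1:62759879-62760660, with 16.4 and 13.8. Others lay inside Edil3, a secreted integrin ligand (13.5 and 15.0), inside Abcc1, a drug efflux transporter (10.2 and 11.8), and 42596 bp from Tox3, an HMG-box factor (15.2 and 10.8). None of the 10 leading KO-only regions overlapped any Bcl11a peak of T1 or T2. In T2, 9 of the 10 had a peak in both KO-iMOS lists, but only the region on chromosome Y nearest to LOC665918 was without a WT-iMOS T2 peak. The Nrp2, Abcc1 and Tox3 regions had a peak in all 3 WT-iMOS T2 lists. Absence from WT-iMOS in T1 was therefore not repeated in T2 at these sites.

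Most of the highest WT-only regions were narrow and strongly enriched. The exception among the 10 was a region nearest to Gm45988, 476 bp wide, with 7.98, 8.17 and 7.68. The leading one, 3267 bp from Tcstv3 at chr13:120321364-120321691, was 328 bp wide with fold enrichments of 35.5, 34.1 and 34.6. A region inside Dop1b at chr16:93789191-93789452 had 29.4, 28.9 and 31.4, and one inside Slc45a1, a sugar transporter gene, at chr4:150644933-150645198 had 25.8, 23.6 and 27.2. All 10 leading regions had a peak in all 3 WT-iMOS T2 lists and in no KO-iMOS T2 list, and each overlapped 1 to 3 Bcl11a T1 lists. Enrichment of 20 or more in every list of the class was found at 17 WT-only regions, 0 KO-only regions and 34 regions in all 5 lists. The 17 had a median width of 262 bp, 16 overlapped a Bcl11a T1 peak, 0 lay within 1 kb of a gene boundary, and none had a peak in a KO-iMOS T2 list. They are a small share of the class, whose median enrichment was 5.81, against 6.06 for KO-only and 7.54 for regions in all 5 lists. Among the regions in all 5 lists the leader was an intergenic one at chr2:98666253-98667329, with 15.1 and 15.4 in KO-iMOS and 15.6 in each WT-iMOS list, and it overlapped all Bcl11a lists. No list of artefact-prone regions was applied, and the part of such signal in either class was not tested.

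WT-only regions were somewhat more frequent on sex chromosomes and the lists differed on unplaced contigs. Chromosome X held 27 WT-only regions (3.26%) and 65 KO-only regions (1.31%), against 2.09% of all regions. Chromosome Y held 8 WT-only regions (0.967%) and 5 KO-only regions (0.101%), against 0.103% of all regions. Unplaced contigs, left out of all region counts, held 0.316% and 0.529% of the KO-iMOS peaks and 1.34%, 1.87% and 2.16% of the WT-iMOS peaks.

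The T2 lists, which had no part in choosing the regions, repeated the split for WT-only regions and repeated it in part for KO-only regions. Over all merged regions, 46.4% and 22.0% had a peak in the KO-iMOS T2 lists, and 39.3%, 22.5% and 16.2% in the WT-iMOS T2 lists. Of the 827 WT-only regions, 75.7%, 65.4% and 66.0% had a peak in the WT-iMOS T2 lists, and 8.59% and 0.846% in the KO-iMOS T2 lists. The difference of the means was -64.3 percentage points, with no overlap between the genotypes (4.72% ± 5.47, n = 2, against 69.0% ± 5.77, n = 3, exact two-sided permutation p = 0.2, the smallest possible). Of the 4953 KO-only regions, 69.2% and 28% had a peak in the KO-iMOS T2 lists, and 35.4%, 8.90% and 2.83% in the WT-iMOS T2 lists. Here the genotypes overlapped: the longest WT-iMOS T2 list, with 12126 peaks, held more of these regions than the shorter KO-iMOS T2 list, with 6337. The difference was 32.9 percentage points (exact two-sided permutation p = 0.4). When all 10 Spi1 lists were cut to 4926 peaks, 940 KO-only regions remained, of which 67.6% and 60.1% had a peak in KO-iMOS T2 and 39.5%, 26.5% and 16.7% in WT-iMOS T2, without overlap (36.3 percentage points, exact permutation p = 0.2). At that length 732 WT-only regions gave 7.38% and 7.24% in KO-iMOS T2 against 59.3%, 68.6% and 71.0% in WT-iMOS T2.

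**Figure D4:**
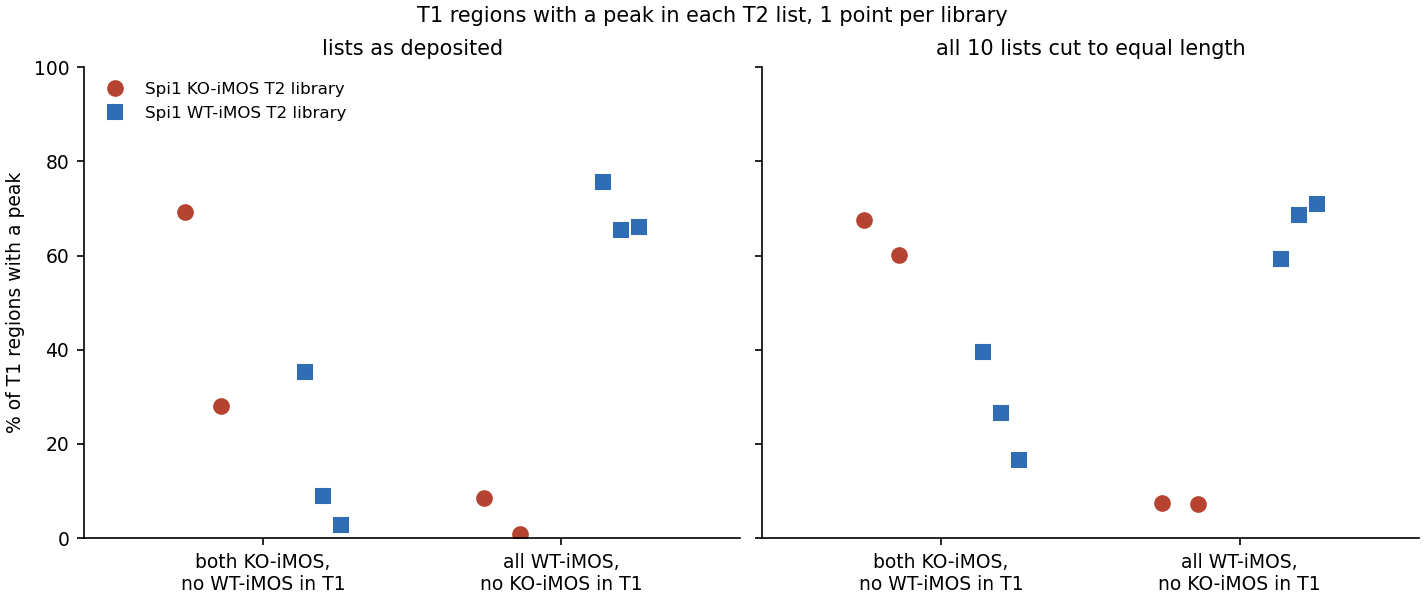
Percentage of T1 regions with a peak in each Spi1 T2 list (1 point per library) for the KO-only and WT-only classes, with lists as deposited (left) and all 10 lists cut to equal length (right). The WT-only regions lie at 59.3% or more in WT-iMOS T2 and under 9% in KO-iMOS T2 in both panels, while for KO-only regions the genotypes overlap on the left and separate on the right.

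Region by region, 337 WT-only regions (40.7%) showed the complete split again in T2, in all 3 WT-iMOS lists and neither KO-iMOS list, and 0 showed the reverse. Over all merged regions 2.48% showed that split in T2. Of the KO-only regions 532 (10.7%) repeated the complete split, against 4.02% over all merged regions, and 3 showed the reverse. A further 1083 KO-only regions (21.9%) and 88 WT-only regions (10.6%) had no peak in any T2 list, against 37.5% over all merged regions. The difference between genotypes in gene proximity was 10.9 percentage points in T1 and 12.5 in T2, and the test of T1 against T2 differences gave an exact permutation p of 0.6 over 120 labelings. For Bcl11a overlap the same test gave 0.467.

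Gene starts showed an unequal split too. Of 21263 starts of protein-coding genes, 1716 (8.07%) had a peak in both KO-iMOS lists and no WT-iMOS list, 5 (0.0235%) showed the reverse, and 790 (3.72%) had a peak in all 5. Lists of equal length gave 398 KO-only starts (1.87%) and 42 WT-only starts (0.198%), so the counts depended strongly on list length. The 5 WT-only starts of the deposited lists belonged to Tbl1xr1, Lysmd1, Nlrp3, Rps7 and Tmem179b. The Tbl1xr1 start lay in a merged region that had peaks in both KO-iMOS lists too. Classed by merged region, 4 starts were WT-only. Because KO-iMOS peaks were wider, a peak could reach a window that a narrower WT-iMOS peak at the same place missed. Of the 1716 starts, 1569 (91.4%) lay in merged regions without any WT-iMOS peak, and the rest lay in regions that a WT-iMOS list shared. The highest KO-only starts, Rps19, Cuedc2, Icam1 and Slc25a25, were of that second kind, each in a region with peaks in all 3 WT-iMOS lists.

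The Spi1 motif was less frequent at KO-only starts than at the other starts with a peak in both KO-iMOS lists. GAGGAAGT, searched on both strands of the 300-base window, was present at 2.68% of KO-only starts (interval 2.02% to 3.56%). It was present at 6.90%, 6.38% and 11.3% of starts in both KO-iMOS lists with 1, 2 and 3 WT-iMOS lists. At starts in 1 KO-iMOS list it was at 2.17%, 1.49%, 2.53% and 11.1% with 0 to 3 WT-iMOS lists (2399, 201, 79 and 18 starts). There, a peak in 1 or 2 WT-iMOS lists went with shares below or near that of KO-only starts. It stood at 2.58% of coding starts without a Spi1 T1 peak and at 3.20% of all 32851 starts in the table. The shorter core GGAAGT, which lies within GAGGAAGT, was at 29.1% of KO-only starts and at 36.1%, 42.6% and 52.5% with 1 to 3 WT-iMOS lists, against 20.7% without a peak and 23.8% of all starts in the table. By motif content, KO-only starts were thus near the starts without a Spi1 T1 peak for the long form. For the core, KO-only starts lay between those without a peak and those in both KO-iMOS lists and at least 1 WT-iMOS list. KO-only regions also ranked lower within the lists than regions in all 5. Their median percentile of −log10 p was 44.35, against 76.7. The part of peak rank, or of the CG content given below, in these motif shares was not tested. At WT-only starts, which were few, GGAAGT was at 4 of 5 as deposited and at 33 of 42 (78.6%) at equal length. GAGGAAGT was at 1 of these 5, Tbl1xr1, and at 5 of these 42 (11.9%). By merged region, GGAAGT was at 3 and GAGGAAGT at 0 of 4 WT-only starts. In lists of equal length GAGGAAGT was at 3.27%, 6.32%, 7.85% and 11.9% of starts in both KO-iMOS lists with 0 to 3 WT-iMOS lists. Classed by merged region in place of peak, it was at 2.45%, 6.78%, 6.09% and 10.2%.

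**Figure D5:**
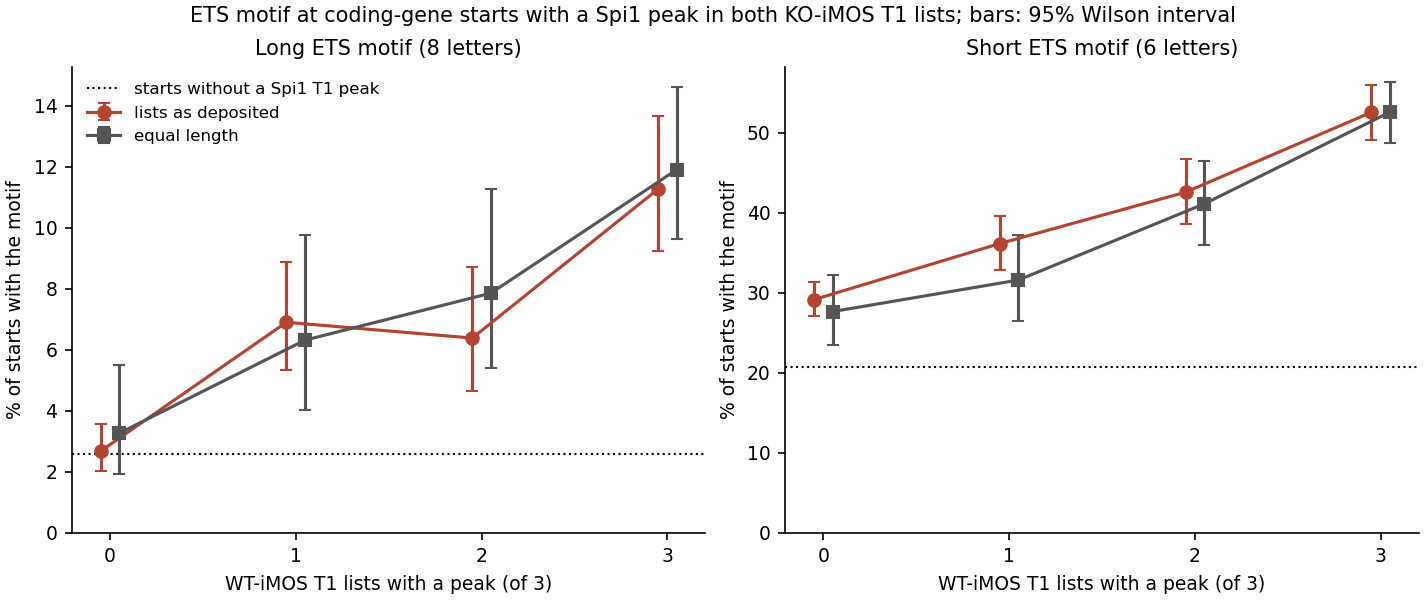
Percentage of coding-gene starts with a Spi1 peak in both KO-iMOS T1 lists whose 300-base window holds the longer (left) or shorter (right) Spi1 motif, by the number of WT-iMOS T1 lists with a peak; bars are 95% Wilson intervals, and the dotted line marks starts without a Spi1 T1 peak. The share is lowest with 0 WT-iMOS lists and highest with 3, with lists as deposited (2.68% and 11.3% on the left) and with lists of equal length (3.27% and 11.9%).

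Per library, the starts with a peak carried GAGGAAGT in 5.02% ± 0.869 of cases in KO-iMOS (n = 2) and 8.83% ± 1.01 in WT-iMOS (n = 3), without overlap (exact two-sided permutation p = 0.2, the smallest possible). At equal length the means were 7.29% and 9.36%, and for GGAAGT 39.3% and 49.3%. The Bcl11a motif TGACCA was at 10.3%, 11.2%, 11.9% and 13.4% of starts with 0 to 3 WT-iMOS lists and at 13.6% of all starts, and its per-library means were 12.6% in both genotypes at equal length (exact permutation p = 1). The median number of CG pairs per window was 24 at KO-only starts and 22 at starts in all 5 lists, against 13 over all coding starts and 7 at those without a peak, so both of these classes were richer in CG than coding starts in general. Bcl11a T1 peaks overlapped 45.2% of KO-only starts and 74.6% of starts in all 5, against 16.5% of all coding starts and 2.64% of those without a Spi1 T1 peak. A motif match describes the sequence and does not show a bound site.

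At the level of genes, a locus was taken as the gene and the 10 kb flanking it at each end. Of 21887 protein-coding genes, 2588 (11.8%) had a peak at the locus in both KO-iMOS lists and no WT-iMOS list, 177 (0.809%) in the reverse, and 3058 (14%) in all 5. Lists of equal length gave 732 KO-only (3.34%) and 453 WT-only genes (2.07%). As deposited, the KO-only count was 4973 without KO-iMOS replicate 2 and 4030 without WT-iMOS replicate 1, and the WT-only count was 322 without KO-iMOS replicate 1 and 284 without WT-iMOS replicate 2. Of 437 genes in 20 lists of lineages and functions, 65 (14.9%) were KO-only, 0 were WT-only and 104 (23.8%) had a peak in all 5 lists. At equal length 15 (3.43%) were KO-only, a share near that of all genes, and 9 WT-only. The 15 included Tspo2, Cdk4, Tet1, Hdac2 and Ndufv1, which each had a peak in 1 WT-iMOS list as deposited. Of the 65 genes, 7 also had peaks in both KO-iMOS and no WT-iMOS list in T2: Epor, Hemgn, Ccnb1, Srsf3, Sf3a1, Cyc1 and Elf1. These are 10.8% of the 65, against 12.5% (324) of all 2588 KO-only genes. Bcl11a T1 peaks lay at 39 of the 65 loci (60%), against 1166 (45.1%) of the 2588.

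At the Spi1 and Bcl11a genes themselves the lists as deposited gave different classes. Spi1 had a region in all 5 lists at its own locus, at chr2:91082196-91083665, with enrichments of 4.67 and 4.21 in KO-iMOS and 5.09, 5.08 and 3.72 in WT-iMOS, and all 3 Bcl11a T1 lists overlapped it. A second region at the gene, at chr2:91096435-91097372, had 7.91 and 5.60 in KO-iMOS and 6.09 and 4.80 in 2 of the 3 WT-iMOS lists. The Bcl11a locus had Spi1 peaks in both KO-iMOS lists and in no WT-iMOS T1 list. One KO-only region lay 34089 bp inside the gene at chr11:24139185-24139752 (6.73 and 5.32) and another 1250 bp outside it at chr11:24174548-24175067 (3.91 and 4.44). The locus was no longer KO-only with lists of equal length. No Bcl11a T1 peak lay there. In T2 both KO-iMOS and 2 WT-iMOS lists had a Spi1 peak at the locus, so the split of T1 was not repeated there. A peak list cannot show whether the Bcl11a gene was deleted.

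The lists of haematopoietic genes below stand beside 11.8% KO-only among all genes, or 3.34% at equal length. At equal length the stem factor, receptor, granulocyte and monocyte factor and neutrophil lists had 1 KO-only gene each. Among 20 stem and progenitor factors, 3 were KO-only and 8 had a peak in all 5 lists, including Runx1, a master regulator of blood stem cells (6.89 and 9.48 in KO-iMOS against 6.12, 5.88 and 4.45). The KO-only genes were Myb, needed for progenitor growth, Gfi1b, an erythroid and megakaryocyte repressor, and Ikzf2, an Ikaros family factor. The Myb region lay 9621 bp inside the gene at chr10:21151136-21151589, with 6.15 and 6.68. The Gfi1b region lay 145 bp inside its gene at chr2:28621456-28622217, with 7.63 and 5.63, and was found in 2 WT-iMOS T2 lists. Of 20 progenitor surface receptors, 5 were KO-only and 7 in all 5, among them Flt3, Csf1r, Csf2ra and Csf2rb, receptors for growth factors of progenitors and myeloid cells. Epor, the erythropoietin receptor, was KO-only through the region at the Swsap1 start printed above, at chr9:21955411-21956164, which lies 3109 bp from Epor and recurred in both KO-iMOS and no WT-iMOS T2 list. The KO-only receptors also included Slamf1, Cd27 and Cd34, a surface marker of progenitors. Cd34 met the rule through a different region in each KO-iMOS list.

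Of 20 granulocyte and monocyte factors, 4 were KO-only and 6 were in all 5, including Cebpa, the leading factor of granulocyte commitment (7.12 and 8.08 against 7.44, 6.25 and 4.92). The KO-only genes included Irf8, which directs monocyte and dendritic cell fate, Egr2, a factor of macrophages, and Zeb2. The Irf8 region had its centre 10168 bp from the gene and reached the edge of the locus, at chr8:120766580-120767146 (5.96 and 6.11), with no WT-iMOS T2 peak and a peak in 1 KO-iMOS T2 list. The Egr2 region lay inside the gene, 242 bp from its start (8.44 and 5.38). Of 20 neutrophil granule and phagocyte genes, 3 were KO-only and 6 in all 5, including Itgam, the integrin chain CD11b (9.70 and 9.98 against 7.11, 5.52 and 5.44). The KO-only genes were Ltf, lactoferrin of secondary granules (8.70 and 8.97), and the neighbours Elane and Prtn3, 2 serine proteases of primary granules that shared the same regions (at most 4.85 and 6). The list of 20 dendritic and antigen presentation genes had 0 KO-only genes and 7 in all 5, among them Cd74, H2-Aa and Itgax.

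KO-only counts in the lists of other lineages were small, beside 11.8% KO-only among all genes and 3.34% at equal length. Of 24 lymphoid genes, Dntt, Gata3 and Lef1 were KO-only (12.5%) and 5 (20.8%) were in all 5, including Ikzf1 and Notch1, and at equal length 0 were KO-only. Of 20 erythroid genes, Car2, a carbonic anhydrase (7.33 and 6.70), Hemgn and Ermap were KO-only (15%) and 2 were in all 5. At equal length 2 (10%) of the erythroid genes were KO-only, Car2 and Tspo2. Tspo2 had a peak in 1 WT-iMOS list as deposited. Of 20 megakaryocyte genes only the integrin gene Itga2b was KO-only (5%). Of 19 mast cell, basophil and eosinophil genes only the chemokine receptor gene Ccr3 was (5.26%). At equal length 0 were KO-only in either list. Of 30 genes of non-haematopoietic tissues, 0 were KO-only or in all 5 and 19 had no Spi1 T1 peak at all.

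Among genes of general cell functions the lists differed. Of 20 housekeeping genes, 1 (5%) was KO-only, Tubb5, against 11.8% of all genes, and 6 were in all 5 lists. At equal length 1 (5%) was KO-only, against 3.34% of all genes. Of 25 chromatin regulators, 10 (40%) were KO-only and 5 in all 5. At equal length 4 were KO-only: Chd4, Mta2, Tet1 and Hdac2. Tet1 and Hdac2 had a peak in 1 WT-iMOS list as deposited and are not among the 10. The 10 included Chd4, Mta2 and Hdac1, subunits of NuRD, the methyltransferase genes Ezh2 and Kmt2a, the acetyltransferase genes Ep300 and Crebbp, and Bcl11a itself. Kmt2a met the rule without holding a KO-only region. In T2, 0 of the 10 had peaks in both KO-iMOS and no WT-iMOS list, against 12.5% of all KO-only genes. The chromatin genes had a median length of 76.5 kb, against 17.2 kb over all genes. A longer locus can hold more peaks, and the part of length was not tested. The Ezh2 region covered its start at chr6:47594753-47595481 (8.16 and 7.31) and overlapped 2 Bcl11a T1 lists. The Chd4 region lay 7110 bp from the gene, nearer to Lpar5, and overlapped all 3 Bcl11a T1 lists (7.31 and 6.71). Of 25 splicing factors, 10 (40%) were KO-only and 2 at equal length. They included Srsf3, with 2 KO-only regions (up to 7.50 and 7.21), Srsf5 (7.17 and 7.46) and Hnrnpl (5.60 and 7.28). Of 25 genes each, oxidative phosphorylation had 6 KO-only genes, among them Atp5c1 and Cyc1, translation and proteasome had 5, among them Eif3a and Psmd1, and ribosomal proteins had 4, among them Rpl11. At equal length these 3 lists had 1, 0 and 0. The 1 was Ndufv1, which had a peak in 1 WT-iMOS list as deposited. The chromatin and splicing lists were thus above the 11.8% of all genes with the lists as deposited, and no set test was made.

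Among interferon and inflammation genes and survival genes, more were in all 5 lists than KO-only. The same held for most of the lists and for the listed genes together (104 against 65). Over all genes 14% were in all 5 lists, against 23.8% of the listed genes. Of 25 interferon and inflammation genes, 11 were in all 5 lists and only Nfkbia, the NF-kappaB inhibitor, was KO-only. Ifngr1, a chain of the interferon gamma receptor, had 11.9 and 12.3 against 9.48, 5.68 and 6.80. Of 20 survival genes, 9 were in all 5, among them Mcl1 and Bcl2l1, and only Birc5 was KO-only. Of 20 Spi1 partners and ETS family genes, 8 were in all 5 and 3 were KO-only: Spib, the closest relative of Spi1, with 5.05 and 4.95, Elf1 with 2 KO-only regions, and Irf8. Of 25 cell cycle genes, Ccne1 and Ccnb1, cyclins of S phase entry and mitosis, were KO-only and 7 were in all 5.

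At equal length the 9 WT-only list genes were Il3ra, Gfi1, Cybb, Myc, Xiap, Rpl18, Tuba1b, Lepr and Ets2. With the lists as deposited, each of them had a peak in at least 1 KO-iMOS list, so their WT-only state rests on the shorter lists. At Gfi1, a repressor needed for neutrophils, the WT-iMOS enrichments were 5.64, 5.52 and 5.04. Snd1, a coactivator gene 455 kb long, had 5 KO-only regions and no WT-iMOS T1 peak at its locus. Gm13279, 0.968 kb long and in a cluster of short neighbouring genes, also had 5 within its flanks. Gabbr2 and Srgap3, genes of neurons, had 5 each beside peaks of WT-iMOS lists. Tspan11, a tetraspanin gene, was the reverse, with 3 WT-only regions inside the gene, a peak in every WT-iMOS list of T1 and T2 and in no KO-iMOS list, and all 3 Bcl11a T1 lists at the locus. Its best enrichments were 5.95, 4.32 and 5.12. Sfi1 on chromosome 11 held 6 WT-only regions beside 2 KO-only regions and several in all 5 within 71.5 kb. Of the 110 WT-only regions without a Bcl11a T1 peak, 69 had none in T2 either, and 8.70% of these lay near a gene boundary.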

How the data were processed

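Libraries were built from sorted MPP3 cells by CUT&Tag (a kit, per the labels' protocols). The submitters' processing notes name Bowtie2, SAMtools and MACS2, with mm10 as the build and no versions; settings and any control are not given in the sources used here. The authors deposited 1 peak list per library. Each deposited line holds a score, a fold enrichment (a ratio), and p-value and q-value as −log10, and every deposited −log10 q was above 2. No read counts are given, so depth is unknown and the number of peaks limits the precision.

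Peaks on assembled chromosomes were used with Python 3.11.15, pandas 2.3.3, numpy 2.4.6, matplotlib 3.10.9 and scipy 1.17.1. Peaks sharing 1 bp were merged across the 5 Spi1 T1 lists, and no 2 lists had more than 57 identical intervals. Genes and starts came from RefSeq tables on GRCm38.p6, with 21887 coding genes. The gene table carries no strand or exons, so each position is described by the gene it lies in or its distance to one. Of 438 listed genes 437 matched, and a gene could stand in more than 1 list. Library measures were compared by exact permutation of the genotype labels over 10 labelings, two-sided with the smaller tail doubled, and all 11 measures gave 0.2 after Benjamini-Hochberg adjustment. Regions, genes and starts share libraries and were counted without a test. Lists were also cut to equal length by −log10 p. Merging, classing and placing were tested on simulated lists.

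Members, gene lists and tests were chosen with earlier results of these data known. Named regions were the 10 highest KO-only, the 10 highest WT-only and the 5 highest in all 5 lists by mean percentile of −log10 p. Named genes were up to 3 per list in each direction, the 5 with most regions of each class, Spi1 and Bcl11a; other genes named as members of a count were added after their values were seen. Whether replicate numbers pair the samples could not be decided. Deviations of same-numbered KO-iMOS and WT-iMOS libraries correlated at -0.0784 and -0.0541. With the KO-iMOS libraries swapped, the values were 0.0784 and 0.0541. Deviations of the KO-iMOS libraries from their mean mirror each other by construction, so these signs cannot show or exclude pairing.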

Additional observations from a re-analysis of the deposited data

How the results depend on the processing

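No result changed direction under any alternative, and no test could pass its threshold in a design of 2 against 3 libraries. Peak number, gene proximity and Bcl11a overlap of the libraries kept their direction with 1 library left out (differences of 4874 to 12067 peaks, 9.03 to 12.1 and -25.9 to -18.6 percentage points). With the replicate block on numbers 1 and 2 the differences were 7739 peaks, 9.03 and -20.2 percentage points (exact p = 0.5, the smallest possible); the numbers are not known to pair the samples. With lists of equal length there were 1291 KO-only regions, 732 KO-only and 453 WT-only genes, 398 KO-only and 42 WT-only starts (the starts added after seeing the data), with 26.6% and 7.27% of KO-only and WT-only regions near a gene and 23.8% and 81.8% overlapping Bcl11a. A deposited −log10 q above 5 gave a Bcl11a overlap of 24.9% and 88.9%. Windows of 200 bp around summits gave 5.12% of WT-only regions near a gene and 84.0% with Bcl11a. At least 2 WT-iMOS lists in place of 3 gave 1945 WT-only regions, 71.4% of them with Bcl11a, and 378 genes. A distance of 3 kb gave 40.5% of KO-only and 8.10% of WT-only regions near a gene, and Bcl11a in at least 2 lists gave overlaps of 9.43% and 70.7%. Leaving out 1 library at a time gave 5057 to 12495 KO-only regions, 31.2% to 33.9% near a gene, 15.2% to 25.7% with Bcl11a, and 2715 to 4973 genes. It gave 929 to 1400 WT-only regions, 2.18% to 4.32% near a gene, 75.4% to 87.1% with Bcl11a, and 214 to 322 genes. Some alternatives were chosen after seeing the data: regions without a Bcl11a T1 peak left 110 WT-only regions, with 5.45% near a gene, and 23.8% of KO-only regions near a gene. Classing starts by merged region gave GGAAGT at 47.9% of starts in all 5 lists. The cause of these shifts was not tested. List length limits all counts, since an absent peak can be a site under the caller's threshold.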
